A study of Mus musculus with 6 samples.

Results

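The 10 genes described here encode the mouse MHC class II presentation machinery. They were chosen by gene symbol, as the rows named H2-Aa, H2-Ab1, H2-Eb1, H2-DMa, H2-DMb1, H2-DMb2, H2-Oa, H2-Ob, Cd74 and Ciita among the 54532 genes of the deposited table, and all 10 were found. RNA had been sequenced from T cells of the spleens of C57BL/6 mice aged 6 to 8 weeks, isolated with a kit that depletes other cell types. All of the T cells were kept in 10 ng/mL IL-2, pre-activated for 72 h with beads against CD3 and CD28, and then cultured together with the mouse ovarian cancer cell line ID8. Treatment was 40 µM cisplatin for 3 libraries (cisplatin) and PBS for 3 libraries (control), given by the study's methods to the ID8 cells before the co-culture. The control columns carry the name WT in the labels, which give no genotype. No label ties a library to a separate mouse or culture, so the p-values measure the spread between these libraries, which may be technical.

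Class II molecules are pairs of an alpha and a beta chain that carry peptides from the endosomes to the cell surface, where CD4+ T cells read them. New pairs are held by the invariant chain (Cd74), which is cut down until only the peptide CLIP fills the groove, and the exchange factor DM releases CLIP. A second class II-like pair, DO, binds DM and restrains it. Transcription of these genes depends on the class II transactivator Ciita, which binds no DNA itself and is recruited by factors bound to a pair of short promoter elements, the X and Y boxes. B cells, dendritic cells and macrophages are the main class II-expressing cells in the spleen, and mouse T cells are generally described as making little or none.

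Of these genes, 8 lie on chromosome 17 of GRCm38 between 34092340 and 34316199, a stretch of 224 kb. Cd74 and Ciita lie on other chromosomes. The RefSeq promoter table for GRCm38.p6, which gives 250 bases before and 50 bases after each gene start, held 7 of the 10 genes. H2-Ab1, Cd74 and Ciita had no entry. The letters TGATTGG, which contain the core of the Y box, were searched on both strands and were found for 6 of the 7 genes, against 7.82% of all 32851 promoters. The exception was H2-DMa, whose windows lie far before its deposited start. In the same 6 genes the letters AAC, which are part of the X box, stood 20 to 30 bases before TGATTGG, an arrangement held by 1.05% of all promoters. The letters and the spacing were set with these promoters in view, so the shares are a description. The windows below are shown because they hold both elements both in genes that were higher with cisplatin on the FPKM as deposited and in the DO genes, which did not pass the test. Capitals mark AAC and TGATTGG, and each sequence reads from 5′ to 3′ on the strand of its gene.
H2-Aa, chr17:34287855-34287914, minus strand: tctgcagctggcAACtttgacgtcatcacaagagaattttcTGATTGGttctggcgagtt
H2-Eb1, chr17:34305766-34305824, plus strand: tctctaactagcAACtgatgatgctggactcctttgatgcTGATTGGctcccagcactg
H2-DMb1, chr17:34153087-34153146, plus strand: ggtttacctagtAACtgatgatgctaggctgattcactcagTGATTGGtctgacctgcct
H2-DMb2, chr17:34145116-34145175, plus strand: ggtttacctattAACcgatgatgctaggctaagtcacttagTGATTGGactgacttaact
H2-Oa, chr17:34092293-34092352, plus strand: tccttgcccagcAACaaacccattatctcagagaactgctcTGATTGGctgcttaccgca
H2-Ob, chr17:34238808-34238864, plus strand: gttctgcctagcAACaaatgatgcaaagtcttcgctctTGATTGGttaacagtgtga

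**Figure D1:**
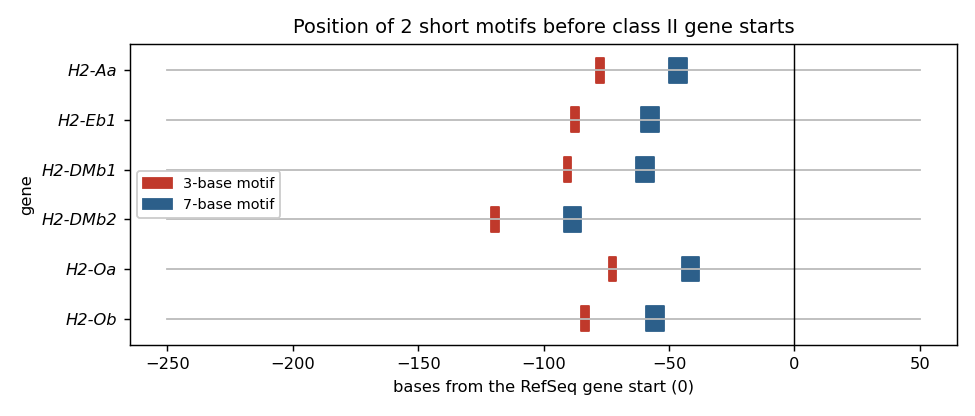
Position of the AAC motif (3 bases, red) and the TGATTGG motif (7 bases, blue) along the gene strand, in bases from the RefSeq gene start, for the 6 class II genes that hold both. The 7-base motif starts between 45 bases (H2-Oa) and 92 bases (H2-DMb2) before the gene start, and 23 to 26 bases separate it from the 3-base motif drawn, which in H2-Oa is the more distant of 2 matches.

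The gap between the motifs was 26 bases in H2-Aa, H2-DMb1, H2-DMb2 and H2-Oa, 25 bases in H2-Eb1 and 23 bases in H2-Ob. H2-Oa held 2 matches, and its gap is given from the AAC farther from TGATTGG, which is the one in capitals. The RefSeq starts of H2-DMb1 and H2-DMb2 lie within those genes as deposited, and so do the windows shown for them. The RefSeq start of H2-Oa also lies within the deposited gene, and the window shown for it runs across the deposited start. The table gives a pair of starts for H2-DMa, both far before the start of that gene in the deposited table. Their windows end at 34122881 and 34125567, while the deposited gene starts at 34135182. Neither window held the motifs, and the stretch next to the deposited start of H2-DMa was not searched. A match does not show that a factor binds there, and the absence of a match says only that these letters are not in the window.

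The deposited values are FPKM, fragments scaled by gene length and by the fragments of the library. Levels compared between genes therefore depend on the deposited lengths, which can exceed the length of a transcript. H2-Aa was given 1874 bases and H2-Ab1 1637 bases, while a GENCODE transcript of each has 1128 and 1212 bases. Reads rebuilt from the FPKM and the gene lengths numbered 30606569 to 32169496 per library. The class II genes had between 545 reads (H2-DMb1, control replicate 1) and 39732 reads (Cd74, cisplatin replicate 2), so none was near the floor of 3 reads. The groups were compared on log2(FPKM + 0.1) by limma. The 15874 genes whose mean reached 0.5 FPKM were tested, all 10 class II genes among them. A gene was called at a Benjamini-Hochberg adjusted p-value under 0.05 with a fold change of at least 2. Each library pools its cells, so fewer cells of one type and less RNA per cell cannot be told apart.

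At an adjusted p-value under 0.05 by limma, 8 of the 10 class II genes were higher in the cisplatin libraries on the FPKM as deposited, none was lower, and the DO genes H2-Oa and H2-Ob did not pass. After each library was centred on a T-cell marker list, 1 of the 10 was higher and 3 were lower. Under that centring 745 of all 15874 tested genes were higher and 10511 were lower. Among all tested genes, 27.5% were higher and 29.0% lower on the FPKM as deposited, 56.5% in all. The rises were of 1.30 to 1.65-fold, and 0 of the 10 genes were called by limma, against 16.9% of all tested genes. By limma's voom on the rebuilt reads 0 of the 10 were called as well, beside 1128 genes called higher and 2423 lower under its own filter. At an unadjusted p under 0.05 by limma, 8 of the 10 genes passed, against 61.1% of all tested genes. The 3 cisplatin libraries lay above the 3 control libraries for the same 8 genes, which 31.9% of the tested genes did, and for no class II gene did all lie below, as for 32.3% of the tested genes. Groups without overlap were seen for 64.2% of the tested genes in all. The median log2 fold change of the 10 genes was 0.55, and that of all tested genes was 0.03.

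By the deposited FPKM, the level of the class II genes followed one order in both groups. It ran from Cd74 through H2-Eb1, H2-Ab1, H2-Aa, H2-DMa, H2-DMb2, H2-Ob, H2-Oa and H2-DMb1 to Ciita. Neighbours in this order did not overlap in their libraries, except H2-Oa and H2-DMb1 in the cisplatin group. The reads of H2-Aa and H2-Ab1 did overlap, at 6522 to 7065 and 6362 to 7204 in control. With cisplatin they were 10170 to 10755 and 10380 to 11854, so the order of H2-Aa and H2-Ab1 depends on the lengths used. Other places in the order depend on the lengths too. In control Ciita had 2005 to 2153 reads over 9535 bases, while H2-DMb1, placed above it, had 545 to 632 reads over 1485 bases. The summed level of the 10 genes was 1077 to 1158 FPKM in the control libraries and 1681 to 1763 FPKM in the cisplatin libraries. Cd74 alone made up 44.9% to 45.8% of that sum in control and 48.2% to 49.0% with cisplatin. The share of all rebuilt reads taken by the 10 genes was 0.164% to 0.176% in control and 0.267% to 0.278% with cisplatin.

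**Figure D2:**
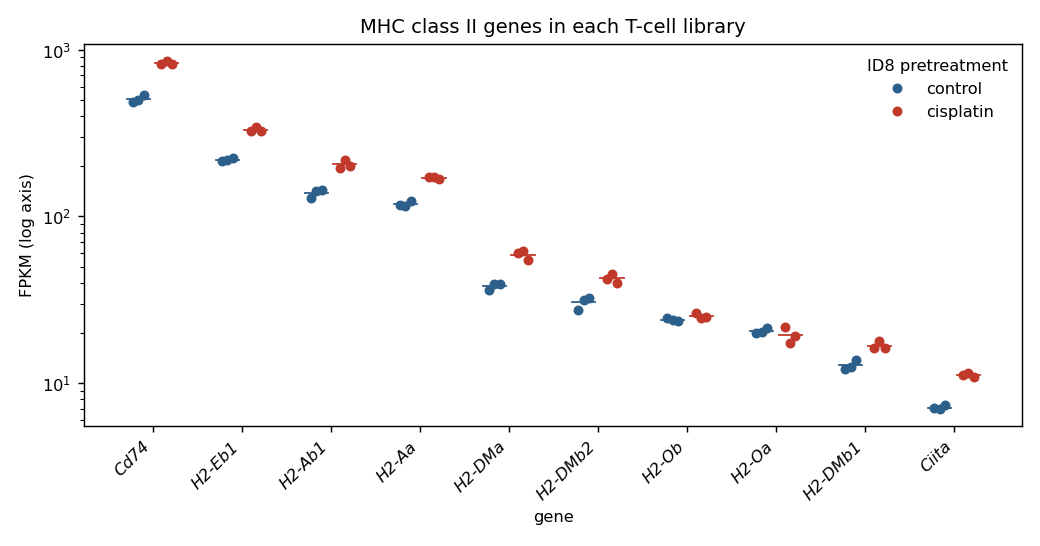
FPKM (log axis) of each class II gene in the 3 control (blue) and 3 cisplatin (red) libraries, with points for libraries and lines for group means. On the deposited FPKM the red points lie above the blue points for 8 genes and overlap them for H2-Ob and H2-Oa. After centring on the T-cell list 1 gene was higher and 3 were lower. Of all 15874 tested genes, 745 were higher and 10511 lower under that centring.

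Among the classical chains, H2-Eb1, which encodes the beta chain of the I-E molecule, had the highest level. It stood at 216, 217 and 223 FPKM in control replicates 1 to 3 and at 325, 343 and 323 FPKM in cisplatin replicates 1 to 3. The groups did not overlap. Its log2 fold change was 0.60 (standard error, SE, 0.03, limma adjusted p = 1.3e-05). C57BL/6 mice carry a defective alpha chain gene for I-E, listed in the table as the pseudogene H2-Ea-ps, so this beta chain lacks its usual partner in them. The pseudogene had 0 to 0.238 FPKM in the control and 0.0450 to 0.220 FPKM in the cisplatin libraries, below the minimum for a test.

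H2-Ab1 encodes the beta chain of I-A, the class II molecule that C57BL/6 cells display. Control replicates 1 to 3 had 129.5, 142.1 and 143.4 FPKM, and cisplatin replicates 1 to 3 had 195.9, 218.5 and 200.3 FPKM. All of the cisplatin values were above all of the control values, with a log2 fold change of 0.57 (SE 0.06, limma adjusted p = 0.0002). H2-Aa, on the other strand from 34282744 to 34287827, encodes the alpha chain of I-A. It had 116.7, 116.1 and 122.9 FPKM in control and 171.5, 173.2 and 167.4 FPKM with cisplatin. The groups were again apart, by a log2 fold change of 0.53 (SE 0.03, limma adjusted p = 1.9e-05).

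The invariant chain Cd74, on chromosome 18 from 60803848 to 60812646, had the highest level and the largest fold change of the 10 genes on the FPKM as deposited. Control replicates 1 to 3 had 487.5, 497.1 and 530.8 FPKM, and cisplatin replicates 1 to 3 had 821.4, 850.3 and 823.7 FPKM. The lowest cisplatin library was thus well above the highest control library. The log2 fold change was 0.72 (SE 0.04, limma adjusted p = 1.3e-05), and 10.3% of all tested genes had one at least as high. A microRNA gene, Mir5107, lies within Cd74 on the same strand.

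Ciita, the transactivator, on chromosome 16 from 10480059 to 10528418, had the lowest level of the group. It stood at 7.08, 7.01 and 7.36 FPKM in control replicates 1 to 3 and at 11.1, 11.6 and 10.9 FPKM in cisplatin replicates 1 to 3. These libraries fell into separate ranges by group, with a log2 fold change of 0.64 (SE 0.05, limma adjusted p = 3.8e-05). Behind these values were 2005 to 3661 reads over a gene length of 9535 bases. Ciita overlaps Dexi on the other strand, and H2-Oa overlaps BC051537 on the other strand. Strand-specific counting is not stated in the sources used here, and without it the reads of such overlapping genes cannot be told apart.

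The exchange factor DM is made of 1 alpha chain, H2-DMa, and either of a pair of beta chains, H2-DMb1 and H2-DMb2. H2-DMa had 36.3, 39.2 and 39.4 FPKM in control and 60.2, 61.7 and 54.7 FPKM with cisplatin. No cisplatin library reached down to a control library, and the log2 fold change was 0.62 (SE 0.06, limma adjusted p = 0.00012). H2-DMb2 had 27.6, 31.7 and 32.5 FPKM in control and 42.3, 45.2 and 40.1 FPKM with cisplatin, also with no overlap. H2-DMb1 had 12.2, 12.5 and 13.9 FPKM in control and 16.2, 17.8 and 16.3 FPKM with cisplatin. The beta chains rose by log2 fold changes of 0.47 for H2-DMb2 (limma adjusted p = 0.0016) and 0.38 for H2-DMb1 (limma adjusted p = 0.0023). Their transcripts were 83.3% identical over 1422 aligned positions and shared an unbroken run of 221 bases. The treatment of reads that match several genes is not given in the sources used here, so the split between H2-DMb1 and H2-DMb2 is uncertain.

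The DO chains were the exception on the FPKM as deposited, though H2-Ob passed as higher after quantile normalization and with voom. H2-Oa, the alpha chain, had 20.1, 20.3 and 21.5 FPKM in control replicates 1 to 3 and 21.9, 17.5 and 19.3 FPKM in cisplatin replicates 1 to 3. The cisplatin libraries lay on both sides of the control libraries. H2-Ob, the beta chain, had 24.6, 23.8 and 23.5 FPKM in control and 26.4, 24.5 and 24.8 FPKM with cisplatin, with an overlap of the groups. The log2 fold changes were -0.08 (95% interval -0.28 to 0.11, limma adjusted p = 0.43) for H2-Oa and 0.08 (95% interval -0.02 to 0.18, limma adjusted p = 0.16) for H2-Ob. The upper bounds of both intervals lay below the lower bounds of the other 8 genes, of which the lowest was 0.23 (H2-DMb1).

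A ratio of 2 genes within a library does not depend on how libraries are scaled to each other. The ratio of H2-DMa to H2-Oa was 1.80, 1.93 and 1.84 in control replicates 1 to 3 and 2.75, 3.53 and 2.84 in cisplatin replicates 1 to 3. All of the cisplatin ratios were higher, by a mean difference of 0.70 on the log2 scale (two-sided exact permutation test, p = 0.1, the smallest that 3 libraries against 3 allow, and 0.233 after Benjamini-Hochberg adjustment over 7 pairs). The 7 pairs were chosen with earlier results of these data known, and none can pass 0.05.

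The ratio of Cd74 to H2-Ab1 was 3.77, 3.50 and 3.70 in control and 4.19, 3.89 and 4.11 with cisplatin, without overlap and with a mean log2 difference of 0.15 (exact permutation p = 0.1, adjusted p = 0.233). The ratio of H2-DMa to H2-DMb1 also stood higher in every cisplatin library, by a mean log2 difference of 0.23 (exact permutation p = 0.1, adjusted p = 0.233). For the other four pairs the groups overlapped. Their mean log2 differences were -0.04 for H2-Aa to H2-Ab1, 0.03 for H2-Eb1 to H2-Ab1, 0.09 for H2-DMb2 to H2-DMb1 and -0.16 for H2-Oa to H2-Ob, with exact permutation p of 0.5, 0.6, 0.3 and 0.2.

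**Figure D3:**
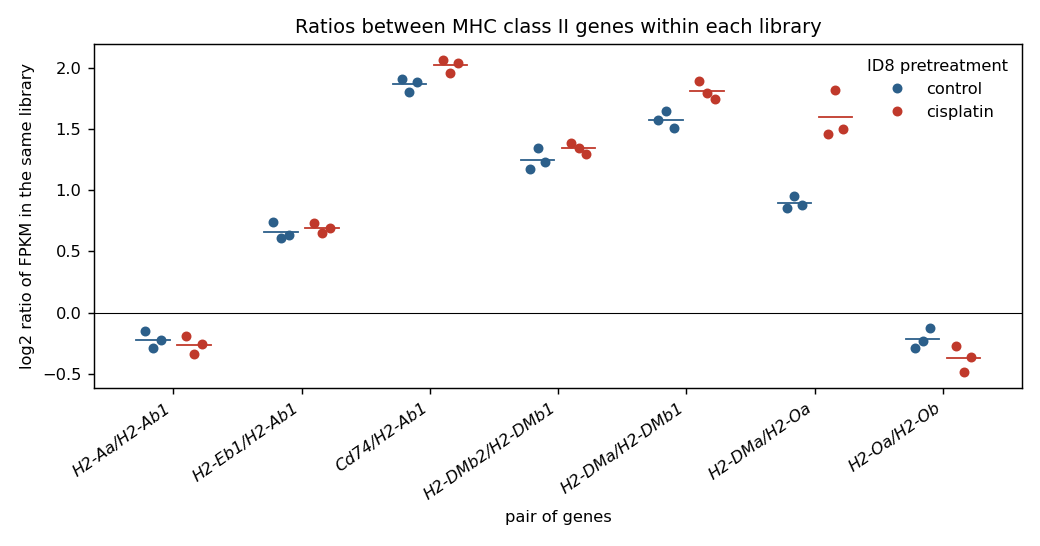
Log2 ratio of the FPKM of 2 class II genes in the same library, for 3 control (blue) and 3 cisplatin (red) libraries, with lines for group means. The groups lie apart for Cd74/H2-Ab1, H2-DMa/H2-DMb1 and H2-DMa/H2-Oa, where the mean difference was 0.70, and overlap for the rest.

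Other genes of the class II pathway moved in both directions on the FPKM as deposited, and centring on the T-cell list lowered each log2 fold change below by 0.58, so that values between 0 and 0.58 changed sign. Of 16 listed regulators of class II transcription, 15 were tested, and 9 were higher, 1 lower and 5 not past an adjusted p of 0.05 by limma. The subunits of the RFX complex, which binds the X box, did not pass, with log2 fold changes of 0.05 for Rfx5, -0.13 for Rfxap and 0.21 for Rfxank. Of the NF-Y subunits, which bind the Y box, Nfyc rose by 0.37 on the log2 scale (limma adjusted p = 0.0083), while Nfya and Nfyb had log2 fold changes of 0.12 and -0.10 that did not pass. Interferon-γ is a known inducer of Ciita. Its gene Ifng had 0.2058 to 0.2833 FPKM in the control and 0.4295 to 1.002 FPKM in the cisplatin libraries, which was below the minimum for a test, and the ranges did not overlap. Its receptor chains went opposite ways, with log2 fold changes of 0.84 for Ifngr1 and -0.46 for Ifngr2 (limma adjusted p = 2e-06 and 0.00016).

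Irf4 and Spi1, transcription factors on the same list of regulators, rose by 0.98 and 0.94 on the log2 scale (limma adjusted p = 3.8e-06 and 9.7e-05). Spi1 had 3.86 to 4.73 FPKM in the control and 8.09 to 8.56 FPKM in the cisplatin libraries. Prdm1, a repressor of Ciita in plasma cells, had a log2 fold change of 0.40 (limma adjusted p = 0.0045).

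Of 9 genes for the endosomal processing of antigen and invariant chain, 4 were higher and 4 lower, and 1 did not pass. Cathepsin S (Ctss), the protease that trims the invariant chain in B cells and dendritic cells, had 75.7, 76.6 and 85.8 FPKM in control and 160.7, 173.4 and 159.9 FPKM with cisplatin. It was called higher, with a log2 fold change of 1.05 (SE 0.06, limma adjusted p = 1.1e-05). Sppl2a, the protease that cleaves the membrane-bound stub left of the invariant chain, went the other way. It had 19.9, 19.4 and 19.7 FPKM in control and 11.2, 11.4 and 12.1 FPKM with cisplatin, a log2 fold change of -0.76 (limma adjusted p = 9.5e-06).

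Of the surface genes, 7 were tested. They comprise partners and regulators of class II at the surface and costimulators, and 6 were higher and none lower by limma. Cd40, a costimulatory receptor of antigen-presenting cells, was called higher, with 1.01, 1.31 and 0.966 FPKM in control and 2.27, 2.95 and 2.19 FPKM with cisplatin (log2 fold change 1.10, limma adjusted p = 0.0018). This call was lost with a pseudocount of 1 (0.73) and without cisplatin replicate 2 (0.97). It was also lost after centring on the T-cell list (0.53) or the B-cell list (0.69). Cd83, which stabilises class II at the surface, had a log2 fold change of 0.73 (limma adjusted p = 2.5e-05). The further class II beta chain gene H2-Eb2 had a log2 fold change of 0.52 (limma adjusted p = 0.00077). Lag3, an inhibitory class II receptor of T cells, did not pass, with a log2 fold change of -0.01. Among these surface genes 2 listed symbols had no row under that name.

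The class I presentation genes were compared as the nearest related set. Of 13 genes, 6 were higher, 2 lower and 5 not past an adjusted p of 0.05 by limma, and the median log2 fold change was 0.06. The class I heavy chain genes H2-K1 and H2-D1 did not pass, both at 0.05 on the log2 scale. Nlrc5, the class I transactivator and a relative of Ciita, had the highest log2 fold change of the list, 0.65 (limma adjusted p = 1.6e-05), beside 0.64 for Ciita. Tapbp, which loads peptides on class I, had the lowest, -0.27 (limma adjusted p = 0.0002). The difference between the class I and class II lists was not tested.

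The 224 kb of chromosome 17 also hold 10 other genes, of which 9 were tested. Brd2, Psmb8 and Tap2 were higher, with log2 fold changes of 0.30, 0.32 and 0.22 (limma adjusted p = 0.00026, 0.0024 and 0.00069), none was lower and 6 did not pass. Of all tested genes, 27.5% were higher and 29.0% lower at the same threshold. H2-Ob, from 34238903 to 34245907, lies between Tap2 and H2-Ab1, and H2-Oa lies at the start of the stretch, so the DO genes do not lie side by side.

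Most tested markers of B cells, macrophages and dendritic cells were higher on the FPKM as deposited, and so were all 18 T-cell markers. Of 14 B-cell markers, 12 were higher and 1 lower at an adjusted p under 0.05 by limma, and their summed level was 1718 to 1808 FPKM in control and 3663 to 3733 FPKM with cisplatin, most of it from Ighm. The B-cell surface markers Cd79b and Ms4a1 had log2 fold changes of 0.75 and 0.96, and Cr2 was under 1 FPKM in every library. Fcer2a was called lower, with a log2 fold change of -1.06 (limma adjusted p = 0.0042). Of 12 macrophage markers 11 were tested, with 9 higher, 8 of them called, and 1 lower, and the summed level was 66.3 to 70.9 FPKM in control and 130.3 to 149.7 FPKM with cisplatin. The complement gene C1qb had the highest log2 fold change, 2.75, and Cd14 the lowest, -0.47. Between them Lyz2 and Csf1r were called, at 1.54 and 1.35, and Cd68 did not pass, at 0.0041. The median of the list, 1.35, was 0.90 with a pseudocount of 1, 0.77 after centring on the T-cell list and 0.0041 over the 3 markers with a mean of 5 FPKM or more (Lyz2, Cd68 and Cd14).

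Of 10 dendritic-cell markers 6 were tested, with 5 higher, up to 0.9981 on the log2 scale for Ccl22, and 1 called lower (Zbtb46, -1.04). Their summed level was 36.4 to 37.1 FPKM in control and 56.4 to 63.6 FPKM with cisplatin. The defining markers Xcr1, Clec9a and Siglech were under 0.5 FPKM in every library and Cd209a was listed at 0. Of 6 plasma-cell markers 5 were tested, with 3 higher (Jchain called, 1.66 on the log2 scale) and 2 lower (Sdc1 called, -1.64), and a summed level of 219 to 227 FPKM in control and 362 to 367 FPKM with cisplatin. All 18 T-cell markers were higher (summed level 1576 to 1695 FPKM in control and 2508 to 2577 FPKM with cisplatin, median log2 fold change 0.58, lowest 0.19 for Cd3g). Of 15 ID8 tumour markers 13 were tested and 12 were called lower, from a summed level of 1572 to 1652 FPKM in control to 242 to 249 FPKM with cisplatin, with Krt19 lowest at -3.61 on the log2 scale and Thbs1 highest at 0.04. The part of these cell types in the class II result was not tested.

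**Figure D4:**
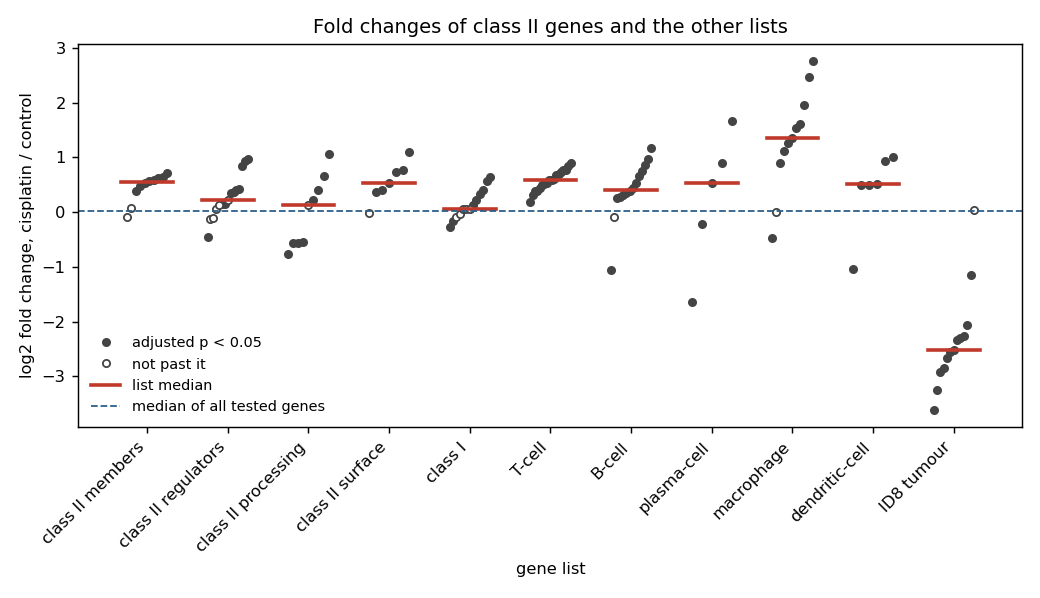
Log2 fold change (cisplatin over control, FPKM as deposited) of each tested gene by list, with filled points past an adjusted p of 0.05 by limma, open points not past it, red lines for list medians and a dashed line for the median of all tested genes. The class II genes have a median of 0.55 beside 0.58 for the T-cell, 0.41 for the B-cell and 1.35 for the macrophage markers (0.0041 over the 3 of these with a mean of 5 FPKM or more), and all values move down under centring on the T-cell or B-cell list.

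The scaling between libraries decided the direction of several class II genes. Centring each library on the T-cell list moved the median log2 fold change of all tested genes from 0.03 to -0.55, and centring on the B-cell list moved it to -0.39. These scalings assume that the listed genes did not change, and lower every gene alike. Relative to the median of all tested genes, the median of the class II genes was 0.52 higher as deposited, which a constant shift cannot alter, and 0.358 higher after quantile normalization. After centring on the T-cell list, Cd74 was higher (log2 fold change 0.14), H2-DMb1, H2-Oa and H2-Ob were lower at an adjusted p under 0.05 by limma (log2 fold changes -0.20, -0.66 and -0.50), and the other 6 did not pass. Of all 15874 tested genes, 745 were higher and 10511 lower under that centring. After centring on the B-cell list, Cd74, Ciita and H2-Eb1 were higher (0.31, 0.23 and 0.18) and H2-Oa and H2-Ob lower (-0.50 and -0.34). Of all tested genes, 1090 were higher and 8432 lower under the B-cell centring. The order of the log2 fold changes, with the DO genes at the bottom, was the same under these constant shifts.

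**Figure D5:**
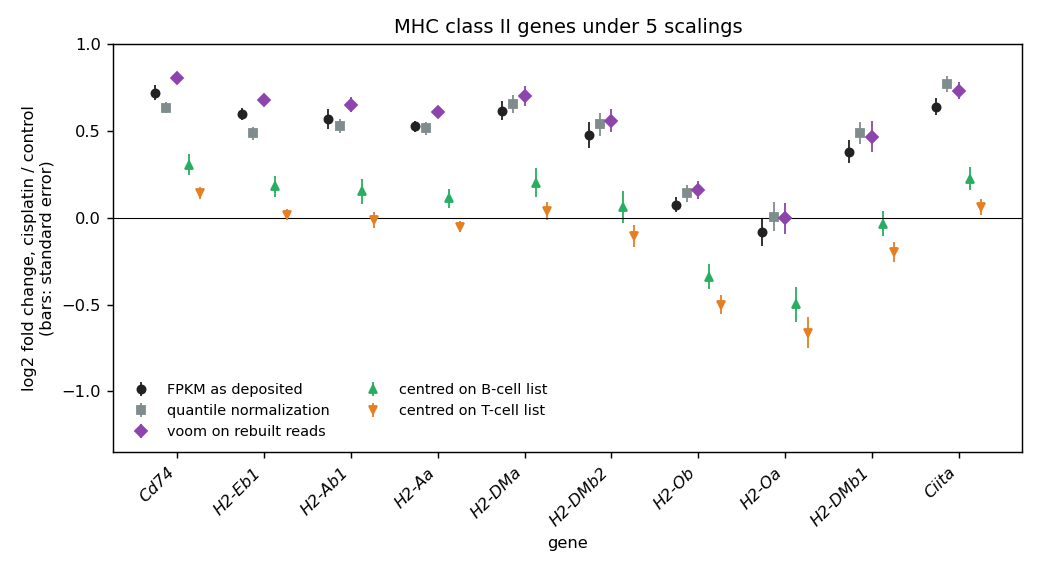
Log2 fold change (cisplatin over control) of the 10 class II genes under 5 scalings, with bars for the standard error. The values of 8 genes lie between 0.38 and 0.72 on the deposited FPKM and between -0.20 and 0.14 after centring on the T-cell list, where H2-Oa and H2-Ob lie at -0.66 and -0.50.

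By the distance between log2(FPKM + 0.1) profiles centred per gene over the 6 libraries, the protein-coding genes nearest to the mean profile of the class II genes were Stoml1, Rplp1, Rps3, Rpl8 and Dnajb11, at distances of 0.0526 to 0.0609 among the 7655 such genes whose mean reached 5 FPKM. H2-Aa lay at a distance of 0.1002 from that mean, and H2-Ob and H2-Oa at 0.483 and 0.699. Reads of ribosomal protein genes such as Rplp1, Rps3 and Rpl8 can be shared with processed pseudogenes.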

How the data were processed

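The authors deposited FPKM for 54532 genes in 6 T-cell libraries, made by removing adaptor-containing and low-quality reads, aligning, counting on known genes and dividing by gene length and library size. The study's methods name LifeScope, and the submitters' processing notes name fastp, HISAT2 2.0.5, featureCounts 1.5.0-p3 and mm10. Of 54409 genes shared with the GENCODE M21 annotation of GRCm38, 53499 had the same coordinates there. Whole reads were rebuilt from FPKM and the gene length given by the authors, with 100% of nonzero values falling no further than 0.1 from a whole number. The library size behind the FPKM was 1.0302 to 1.0492 times the rebuilt reads on genes in the cisplatin libraries and 0.9763 to 0.9818 times in control. This difference lowers all log2 fold changes on the FPKM alike. With voom, scaled by the rebuilt reads, the median of the class II genes was 0.63 beside 0.55. No 2 libraries were identical, and the chi-square between replicates was 5.36 to 6.44 times its degrees of freedom.

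The main test was limma 3.58.1 (R 4.3.3; lmFit, eBayes with trend) on log2(FPKM + 0.1), which understates changes of low genes. DESeq2, used by the authors on counts, was not fitted to FPKM. Alternatives were other pseudocounts (1, 0.01), filters, scalings, limma's voom on the rebuilt reads (genes with 10 or more reads in 3 or more libraries), no trend, leaving out each library, and a replicate block. The genes, lists, ratios and tests were chosen with earlier results of these data known. Named were all 10 class II genes, the extreme genes and called genes of the lists (called macrophage and ID8 genes by examples, and 1 extreme gene not reported here) and the 5 nearest profiles. Further list genes were named for their role after their values were seen. Python 3.11.15, pandas 2.3.3, scipy 1.17.1, biopython 1.88 and matplotlib 3.10.9 were used.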

Additional observations from a re-analysis of the deposited data

How the results depend on the processing

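The 8 class II genes that were higher on the deposited FPKM were all higher at an adjusted p under 0.05 by limma in 16 of the 18 alternatives. The exceptions were the centrings on marker lists, with 1 gene higher and 3 lower on the T-cell list and 3 higher and 2 lower on the B-cell list. The log2 fold changes that changed sign were -0.052 for H2-Aa, -0.011 for H2-Ab1, -0.20 for H2-DMb1, -0.10 for H2-DMb2 and -0.50 for H2-Ob on the T-cell list, and -0.034 for H2-DMb1 and -0.34 for H2-Ob on the B-cell list. Both centrings subtract 1 constant per library. H2-Oa was at 0.0064 after quantile normalization. H2-Ob passed as higher after quantile normalization (log2 fold change 0.14, limma adjusted p = 0.044) and with voom (0.16, limma adjusted p = 0.011). Lag3 was at 0.022 after quantile normalization, 0.073 with voom, and -0.059 to 0.037 when single libraries were left out. No class II gene was called under any alternative.

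Over all tested genes, the calls (653 higher, 2034 lower) became 311 higher with a pseudocount of 1, 242 higher and 903 lower with a mean of at least 5 FPKM, 1128 higher with voom, 140 higher and 3756 lower on the T-cell list, and 212 higher on the B-cell list. At an adjusted p under 0.05 alone (4360 higher, 4603 lower), 2893 were lower with a mean of at least 5 FPKM, 745 higher and 10511 lower on the T-cell list, and 1090 higher and 8432 lower on the B-cell list. The cause was not tested, apart from the smaller number of genes under the filter and the constant shifts.

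Libraries with the same replicate number did not deviate together (correlations of -0.063, -0.021 and 0.023). No pairing by number was seen, but so few libraries cannot exclude it. With the replicate block, 651 genes were called higher and 2011 lower, and 8 class II genes were higher.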
